A study of Mus musculus with 6 samples.

Results

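Genes that carry proteins into mitochondria, fold and degrade them there, and shape the organelle were compared in inguinal fat of mice with and without a brown-fat deletion of Yy1. The set was defined by name and not by measured values, but it was chosen with earlier results of these data known. It took every gene whose symbol starts with Tomm (translocase of the outer membrane) or Timm (translocase of the inner membrane), together with 18 named chaperones, proteases, scaffold, fusion, fission, mitochondrial DNA and LETM-domain genes. Of the 12394 genes that could be tested, 39 belonged to it: 7 Tomm genes, 15 Timm genes, 3 matrix chaperones, 4 proteases, 1 prohibitin, 5 fusion and fission genes, 2 mitochondrial DNA genes and 2 LETM-domain genes. Phb had no probe set naming it alone. The 3 probe sets that name a Tomm or Timm gene together with another gene were left out.

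The tissue was subcutaneous white fat, abbreviated IWAT in the titles, from mice of a mixed C57BL6 and 129 background that were 8 weeks old and had eaten a high fat diet for 2 weeks. Control mice were YY1flox/flox, that is, both Yy1 alleles were floxed and no Cre was named (n = 3 arrays). The other group, YY1bKO, was YY1flox/flox; Ucp1Cre (n = 3 arrays), so both groups share the floxed alleles, the diet and the age. Ucp1-driven Cre acts mainly in thermogenic adipocytes, the labels call the knockout specific to brown fat, and no group with Cre but without floxed alleles is named, so Cre itself and loss of YY1 cannot be told apart. Nothing in the labels says that replicates are separate animals, and the p-values then measure the spread between these samples.

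Nearly all mitochondrial proteins are made in the cytosol. The TOM complex admits them through the outer membrane, the TIM23 complex passes those with a targeting sequence to the matrix, and the TIM22 complex inserts carrier proteins, the family to which UCP1 belongs, into the inner membrane. Matrix chaperones then pull in and fold the chains, and ATP-driven proteases remove those that fail. Brown and beige adipocytes are packed with mitochondria, and fusion, fission and import all work on that large pool.

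White adipocyte markers other than Agt had high intensities on every array. Agt had log2 values of 6.45, 6.24 and 6.23 in controls and 7.39, 6.98 and 7.05 in YY1bKO (0.83 ± 0.14, limma adjusted p = 0.150). Its control values lay below the control array medians of 6.96 to 7.04. The 6 markers measured (Adipoq, Lep, Fabp4, Retn, Lpl and Agt) summed to intensities of 72240 to 90360 in controls and 82222 to 86504 in YY1bKO, and none lay below the lower quartile of intensities on all arrays. Median intensities ran from 123.15 to 130.35 per array. Yy1 itself had log2 values of 10.33, 10.52 and 10.62 in controls and 10.13, 10.41 and 10.20 in YY1bKO (log2 difference -0.24 ± 0.12 SE, limma adjusted p = 0.574, exact permutation p = 0.2). Ucp1, whose promoter drives the Cre, went from 5.71, 5.67 and 5.43 to 10.65, 11.01 and 10.91 (5.25 ± 0.14, limma adjusted p = 1.91e-04, exact permutation p = 0.1). Single arrays stood apart in other tissues. YY1bKO replicate 1 had by far the highest skeletal muscle markers, control replicate 2 the highest skin markers, and B cell markers spread widely in both groups, as shown by the plot of list means by array.

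**Figure D1:**
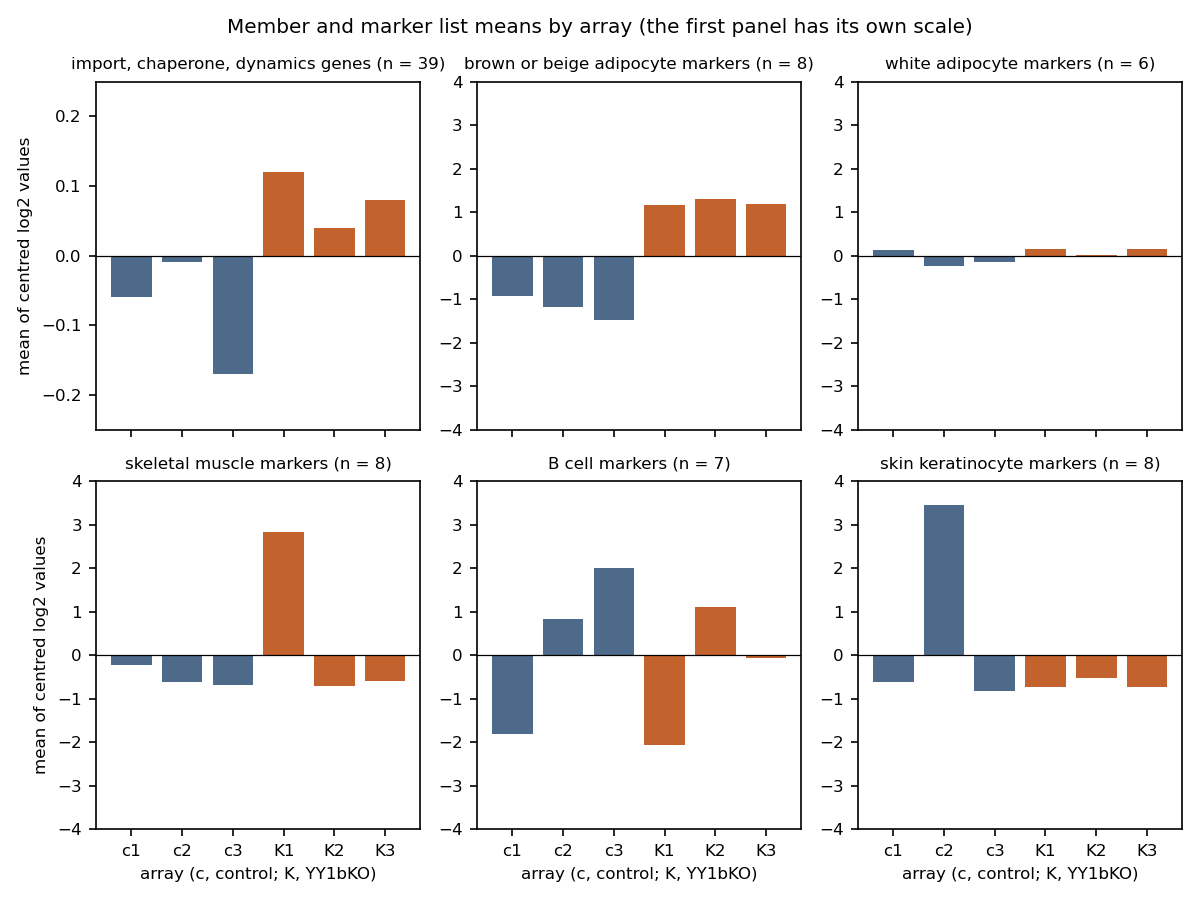
Mean of centred log2 values (each gene's value minus its mean over the 6 arrays) for the 39 import, chaperone and dynamics genes and for 5 marker lists, per array; c1 to c3 are control replicates and K1 to K3 YY1bKO replicates, and the first panel has a narrower scale. The member means run from -0.17 to -0.01 in controls and from 0.04 to 0.12 in YY1bKO, while skeletal muscle markers stand at 2.82 in YY1bKO replicate 1 and skin markers at 3.45 in control replicate 2.

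None of the 39 genes passed the adjusted threshold, and the 10 with an unadjusted p under 0.05 came from the import, chaperone, protease, fusion and LETM-domain groups. Lonp1 and Clpp, matrix proteases, Letmd1 and Letm1, inner membrane proteins, Hspa9, the matrix Hsp70, Timm50, the receptor of the TIM23 channel, Timm8b, an intermembrane space chaperone, Tomm7, a small TOM subunit, and Mfn2, an outer membrane fusion protein, had log2 differences from 0.32 (Tomm7) to 0.72 (Lonp1). Timm22, the channel of the carrier pathway, went the other way at -0.37. The adjusted threshold was a p of 0.05 by limma over all genes, which 0 of the 39 and 4 of 12394 genes (0.0323%) passed. At an unadjusted limma p under 0.05 there were 9 members higher and 1 lower, that is 23.1% and 2.6% of them, where the same rule gave 8.45% and 1.99% of all genes, 10.4% in both directions together. Of the members 28 had a higher mean in YY1bKO (71.8%, against 51.0% of all genes), and their median log2 difference was 0.12 against 0.00 over all genes. Differences are on the log2(intensity + 1) scale throughout. In bulk tissue, more cells of a type and more RNA per cell cannot be told apart.

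The arrays of both groups did not overlap in 13 members. In 12 of them every YY1bKO array was above every control array (30.8%, against 11.5% of all genes), and in 1, Timm22, every YY1bKO array was below (2.6%, against 5.00%). These 12 were the 9 named above together with Timm44, Timm9 and Timm13. The members were brighter than the typical gene, with a median log2 level of 9.49 against 7.53. Among the brighter 50% of genes alone, 8 of 36 members were higher at an unadjusted p under 0.05, and 12.1% of the genes tested there were. Of these brighter genes 58.7% had a higher mean in YY1bKO, and their median log2 difference was 0.05, both above the values over all genes.

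**Figure D2:**
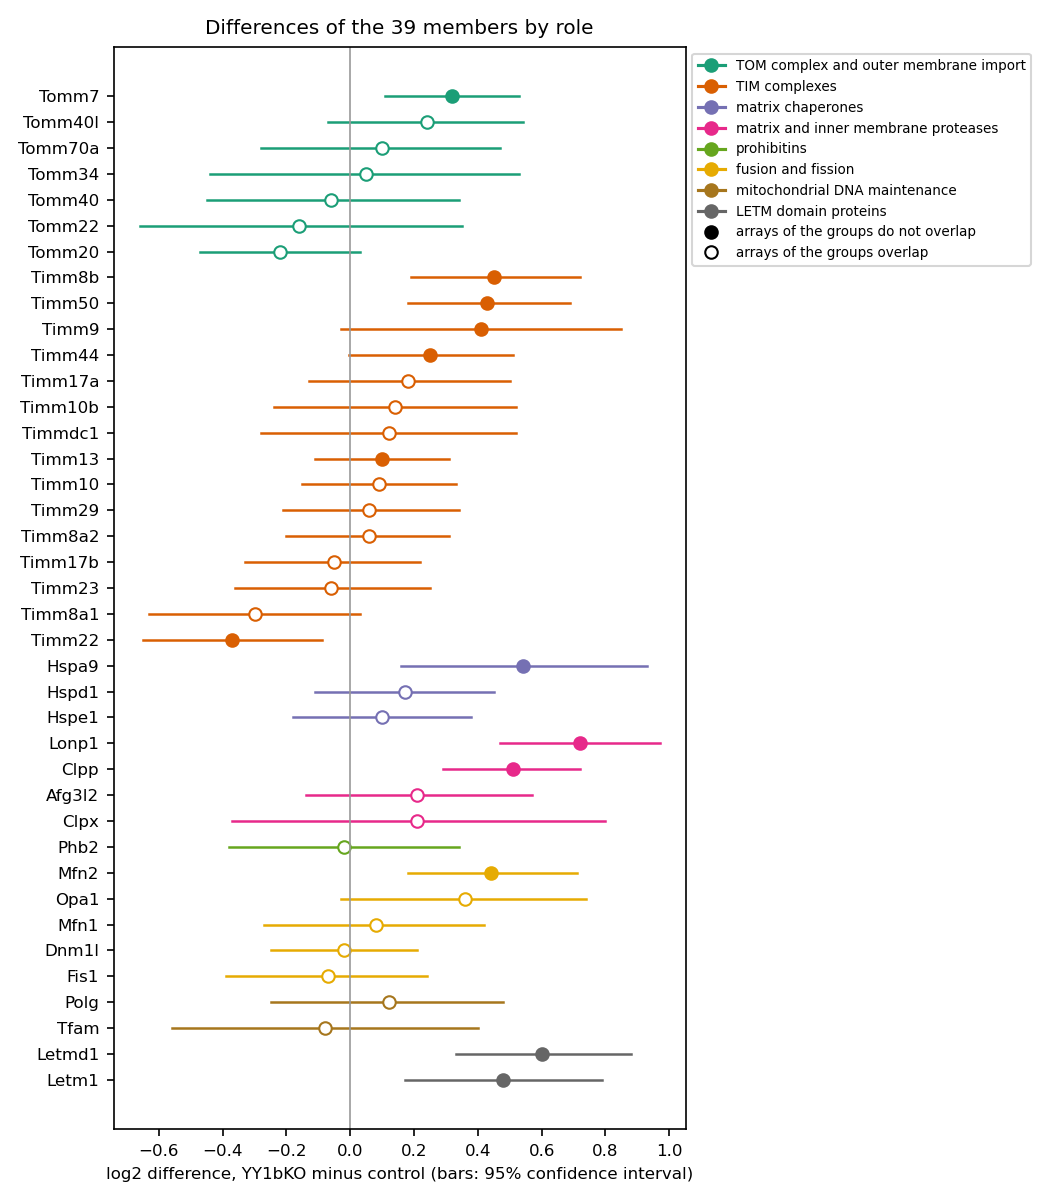
Log2 difference (YY1bKO minus control) of each of the 39 members, coloured by role, with limma's 95% confidence interval; filled points mark members whose arrays did not overlap between groups. The highest values are those of Lonp1 (0.72), Letmd1 (0.60) and Hspa9 (0.54), the lowest those of Timm22 (-0.37) and Timm8a1 (-0.30), and 29 of the 39 intervals hold 0.

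The proteases of the matrix and inner membrane were all higher, 2 of the 4 at an unadjusted p under 0.05 (8.45% of all genes). Lonp1, the ATP-driven protease that clears damaged matrix proteins and binds mitochondrial DNA, had log2 values of 9.00, 8.88 and 8.71 in controls and 9.60, 9.53 and 9.62 in YY1bKO. The lowest YY1bKO array was well above the highest control. The difference of 0.72 ± 0.10 (SE; 95% interval 0.47 to 0.97), a 1.65-fold higher value, gave a limma adjusted p of 0.139, and Lonp1 ranked 37 of all genes by p. Clpp, the proteolytic chamber of the other soluble matrix protease, had 9.29, 9.21 and 9.16 in controls and 9.77, 9.66 and 9.74 in YY1bKO. The groups again lay apart, with a difference of 0.51 ± 0.09 (adjusted p = 0.152), and its second probe set gave 0.44. Clpx, the unfoldase that feeds Clpp, was not separated, with 9.60, 9.85 and 8.97 in controls and 9.88, 9.60 and 9.58 in YY1bKO. Its difference was 0.21 with an interval from -0.37 to 0.80, and without control replicate 3, its low array, it was -0.04. Afg3l2, a subunit of the inner membrane protease facing the matrix, had a difference of 0.21 (-0.14 to 0.57) and 0.33 by its other probe set.

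Of the 3 matrix chaperones, the groups were separated in Hspa9 and overlapped in the chaperonin pair. Hspa9, the motor that draws chains through TIM23 into the matrix, had 10.55, 10.64 and 10.09 in controls and 11.00, 10.94 and 10.96 in YY1bKO. The YY1bKO arrays lay within a narrow band above all controls, and control replicate 3 was the lowest array. The difference was 0.54 ± 0.16 (limma adjusted p = 0.324). A second bright probe set gave 0.52, and a pair of dim ones near the lower quartile gave 0.06 and -0.05. Hspd1 and Hspe1, the chaperonin and its lid, are head-to-head neighbours whose promoter windows share DNA. Hspd1 had 11.49, 11.71 and 11.39 against 11.79, 11.66 and 11.66, with overlap and a difference of 0.17 (-0.11 to 0.45). Hspe1 had 10.79, 11.14 and 11.06 against 11.07, 11.11 and 11.10, a difference of 0.10 (-0.18 to 0.38). Whether Hspa9 differed by more than the chaperonin genes was not tested.

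**Figure D3:**
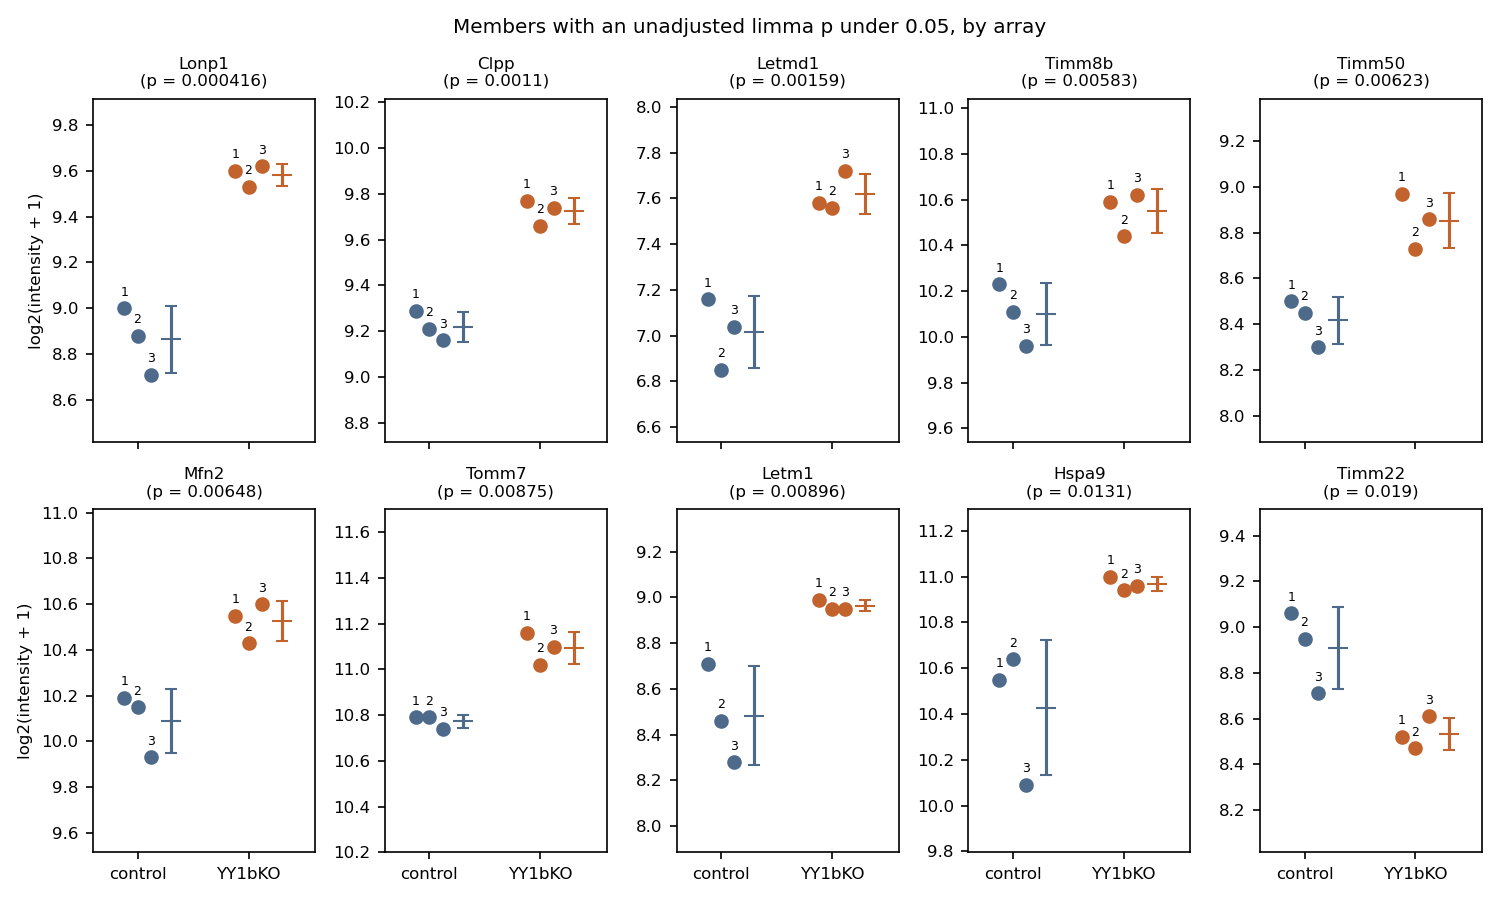
Log2(intensity + 1) of the 10 members with an unadjusted limma p under 0.05, in each array (points, numbered by replicate) with the group mean and SD beside them; each panel spans 1.5 log2 units. In 9 genes all 3 YY1bKO arrays lie above all 3 controls, and in Timm22 they lie below.

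Both LETM-domain genes were higher. Letmd1, an inner membrane protein enriched in brown fat, had 7.16, 6.85 and 7.04 in controls and 7.58, 7.56 and 7.72 in YY1bKO, a 1.52-fold difference with no overlap (0.60 ± 0.11, limma adjusted p = 0.176). Letm1, which acts in ion exchange across the inner membrane, had 8.71, 8.46 and 8.28 in controls and 8.99, 8.95 and 8.95 in YY1bKO. Its controls were spread while its YY1bKO arrays were nearly equal, and the difference was 0.48 ± 0.13 (adjusted p = 0.295). The 4 probe sets of Letm1 gave differences from -0.0044 to 0.48, of which the brightest gave the highest.

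Of the 15 Timm genes, 2 were higher (13.3%, against 8.45% of all genes) and 1 was lower (6.7%, against 1.99%) at an unadjusted p under 0.05. On the TIM23 side, Timm50 had 8.50, 8.45 and 8.30 in controls and 8.97, 8.73 and 8.86 in YY1bKO, with no overlap and a difference of 0.43 ± 0.11 (limma adjusted p = 0.274). Timm44, which tethers Hspa9 to the channel, had 9.26, 9.51 and 9.34 against 9.60, 9.70 and 9.56, also without overlap (0.25 ± 0.10, adjusted p = 0.484). The channel subunits themselves overlapped between groups: Timm23 at -0.06 (-0.36 to 0.25), Timm17a at 0.18 (-0.13 to 0.50) and Timm17b at -0.05 (-0.33 to 0.22). The intervals of Timm44 (-0.0026 to 0.51) and Timm17a lie almost wholly over each other, and differences between these genes were not tested.

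On the TIM22 side, Timm22 had 9.06, 8.95 and 8.71 in controls and 8.52, 8.47 and 8.61 in YY1bKO. Every YY1bKO array was below every control. The difference was -0.37 ± 0.12 (limma adjusted p = 0.364), its dimmer second probe set gave -0.10, and its unadjusted p of 0.0190 was above 0.05 without YY1bKO replicate 1 or 2 and with the mean of both probe sets. Timm29, another subunit of that complex, had a difference of 0.06 and Timm10b, a small subunit attached to it, 0.14, both with overlap.

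Small chaperones of the intermembrane space carry hydrophobic chains between TOM and TIM22. Timm8b had 10.23, 10.11 and 9.96 in controls and 10.59, 10.44 and 10.62 in YY1bKO, a separated difference of 0.45 ± 0.11 (limma adjusted p = 0.270). Timm8a1, its paralog and the gene of deafness-dystonia syndrome in people, had 8.92, 8.98 and 8.54 against 8.45, 8.54 and 8.55, with overlap at control replicate 3 and a difference of -0.30 (-0.63 to 0.03). Both probe sets of Timm8a1 were negative (-0.30 and -0.11). Timm9 had 6.93, 6.80 and 6.46 against 7.43, 7.04 and 6.95 (0.41, -0.03 to 0.85), Timm10 had a difference of 0.09 and Timm13 one of 0.10. Timm13 did not overlap between groups, but its interval from -0.11 to 0.31 holds 0. Timm8a2 was the one member below the lower quartile of intensities on all 6 arrays, so its difference of 0.06 carries little. Timmdc1, an assembly factor of respiratory complex I that the name rule took in, had 0.12.

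Of the 7 Tomm genes, each by its brightest probe set, Tomm7 alone reached an unadjusted p under 0.05 (8.45% of all genes were higher at that p). Tomm7, a small subunit that modulates the stability of the TOM complex, had 10.79, 10.79 and 10.74 in controls and 11.16, 11.02 and 11.10 in YY1bKO. The controls were nearly equal and all YY1bKO arrays were above them (0.32 ± 0.08, limma adjusted p = 0.295). Of its 4 probe sets the other bright one gave 0.42, and the dimmer ones gave 0.14 and -0.02. Tomm20, the main receptor for targeting sequences, had 12.53, 12.52 and 12.38 in controls and 12.39, 12.22 and 12.16 in YY1bKO. Its groups overlapped at 1 array each, and its difference was -0.22 (-0.47 to 0.03). All 5 Tomm20 probe sets had lower means in YY1bKO, from -0.35 to -0.06. In 2 of them the groups did not overlap and the unadjusted limma p was under 0.05, at -0.35 (limma adjusted p = 0.303 over all probe sets) and -0.29 (adjusted p = 0.482). With the mean of all its probe sets, Tomm20 also had an unadjusted limma p under 0.05, at -0.24 (adjusted p = 0.459).

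The remaining Tomm genes were not separated. Tomm22, the central receptor, had -0.16 (-0.66 to 0.35) and turned to 0.07 without control replicate 2, its highest array. Tomm40, the pore, had -0.06 and its paralog Tomm40l 0.24. Tomm70a, the receptor for carrier proteins, had 0.10, and Tomm34, a cytosolic cochaperone, 0.05.

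Among the 5 fusion and fission genes, Mfn2 alone was separated between groups. Mfn2, which joins outer membranes and tethers mitochondria to the endoplasmic reticulum, had 10.19, 10.15 and 9.93 in controls and 10.55, 10.43 and 10.60 in YY1bKO. No array overlapped, and the difference was 0.44 ± 0.11 (limma adjusted p = 0.275), while a second probe set below the lower quartile gave -0.07. Opa1, which joins inner membranes and shapes cristae, had 7.69, 7.41 and 7.13 against 7.84, 7.64 and 7.82, with overlap (0.36, -0.03 to 0.74). Its dimmer probe set gave 0.10. Mfn1, the other mitofusin, had 8.69, 8.86 and 8.41 against 8.82, 8.60 and 8.76, a difference of 0.08 (-0.27 to 0.42). The dimmer probe sets of Mfn1 gave 0.30 and 0.09, also with overlap. Dnm1l, the dynamin that cuts mitochondria, had 9.80, 9.64 and 9.64 against 9.73, 9.70 and 9.59 (-0.02, -0.25 to 0.21). Fis1, an outer membrane protein of fission, had 9.98, 10.36 and 10.10 against 9.95, 10.11 and 10.17 (-0.07, -0.39 to 0.24).

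Genes that maintain mitochondrial DNA, and the prohibitin, were not separated. Tfam, which packs and transcribes mitochondrial DNA, had 8.36, 9.06 and 8.97 in controls and 8.66, 8.82 and 8.68 in YY1bKO. The YY1bKO arrays fell inside the control range (-0.08, -0.56 to 0.40), and without control replicate 1, its low array, the difference was -0.30. Polg, the mitochondrial DNA polymerase, had 8.32, 8.49 and 8.76 against 8.45, 8.74 and 8.72 (0.12, -0.25 to 0.48). The dimmer probe sets of Polg gave -0.12 and 0.03. Phb2, a scaffold protein of the inner membrane, had 10.35, 10.84 and 10.78 against 10.65, 10.64 and 10.63 (-0.02). These intervals still allow differences as large as that of Mfn2 for Polg and, on the lower side, for Tfam.

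**Figure D4:**
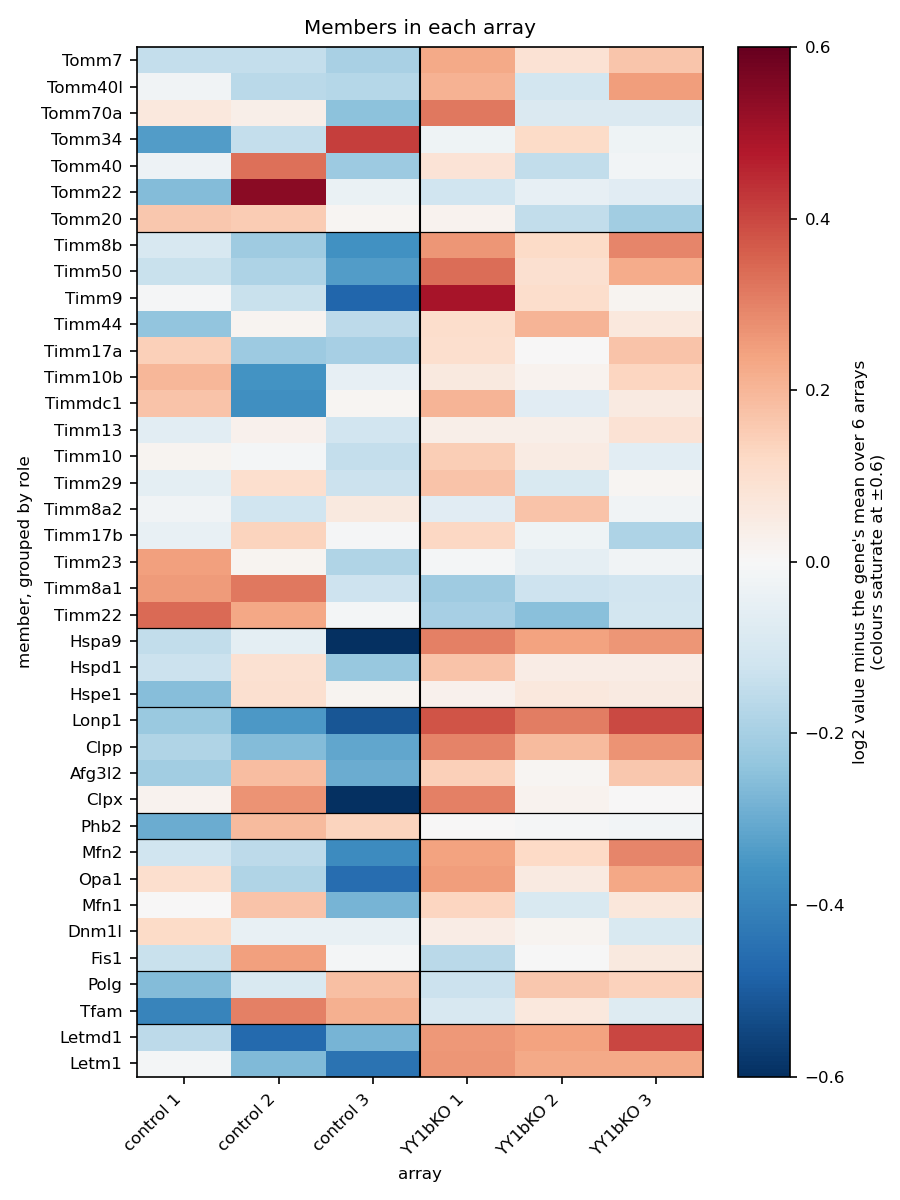
Each member's log2 value minus its own mean over the 6 arrays, in columns by array and rows by role (separated by lines); colours saturate at ±0.6. Control replicate 3 was the lowest of all 6 arrays in 21 of 39 members, and YY1bKO replicate 1 was the highest in 13, Timm9 and Tomm70a among them.

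The members varied more between control arrays than between YY1bKO arrays. The median SD was 0.19 in controls and 0.09 in YY1bKO, and 29 of 39 members had the larger SD in controls, as did 74% of all genes. Control replicate 3 was the lowest array in 21 members and YY1bKO replicate 1 the highest in 13. Control replicate 3 also had the highest B cell marker mean (2.01, against -1.81 and 0.83 in the other controls and -2.07, 1.11 and -0.07 in YY1bKO). The 7 B cell markers summed to intensities of 306 to 8126 in controls and 276 to 3959 in YY1bKO, with Pax5 below the lower quartile on all arrays, and the 6 T cell markers to 437 to 3171 and 390 to 1921. The part of lymphocyte RNA in these differences was not tested. Without control replicate 3, 9 members were higher at an unadjusted p under 0.05 (7.3% of all genes), and the 10 genes named above all kept that p.

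YY1bKO replicate 1 had a skeletal muscle marker mean of 2.82, where the other 5 arrays lay between -0.70 and -0.23. The 8 muscle markers summed to 444 to 666 in controls and 740 to 4250 in YY1bKO, and none was below the lower quartile on all arrays. Acta1, 1 of the 8, was not high in that array alone. It had 8.29, 7.51 and 8.22 in controls and 10.62, 9.04 and 10.62 in YY1bKO (2.08 ± 0.48, limma adjusted p = 0.251). Without YY1bKO replicate 1 the same 9 members were higher at an unadjusted p under 0.05, where 5.0% of all genes were. Control replicate 2 had a skin marker mean of 3.45 and also the highest mammary epithelium marker mean, at 1.74. The 8 skin markers summed to 280 to 12756 in controls and 318 to 353 in YY1bKO, with Krt1 below the lower quartile on all arrays, and without control replicate 2 the number of members higher was 12, where 6.8% of all genes were. Most brown or beige adipocyte markers moved with the groups. The 8 (Ucp1, Cidea, Elovl3, Cox7a1, Cox8b, Fabp3, Ppargc1a and Dio2) all had higher means in YY1bKO. Ucp1 and Fabp3 passed the adjusted threshold by limma. The arrays did not overlap in 6 of the 8, against 11.5% of all genes. Cidea overlapped, at 11.01 in control replicate 2 against 10.76, 10.72 and 10.92 in YY1bKO, and so did Dio2 (0.07). The 8 summed to 1524 to 3043 in controls and 9121 to 10130 in YY1bKO. The share of the members' differences that goes with a larger number of such cells was not tested.

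Promoters were searched in every member for which a sequence was at hand, whatever its difference. YY1 binds DNA, and its core motif, like those of the factors that drive mitochondrial genes, can be searched as letters. RefSeq windows (build GRCm38.p6) from 250 bases before to 50 after each start site were at hand for 35 members, 6 of them with more than 1 window. The 4 windows printed are those of members at an unadjusted p under 0.05, first the 1 that holds the YY1 letters and then the others by p. They are Timm50 (chr7:28311997-28312296, minus strand), Lonp1 (chr17:56626854-56627153, minus strand), Clpp (chr17:56990014-56990313, plus strand) and Letmd1 (chr15:100468761-100469060, plus strand). Each reads 5′ to 3′ along its gene, and capitals mark motif letters.
Timm50: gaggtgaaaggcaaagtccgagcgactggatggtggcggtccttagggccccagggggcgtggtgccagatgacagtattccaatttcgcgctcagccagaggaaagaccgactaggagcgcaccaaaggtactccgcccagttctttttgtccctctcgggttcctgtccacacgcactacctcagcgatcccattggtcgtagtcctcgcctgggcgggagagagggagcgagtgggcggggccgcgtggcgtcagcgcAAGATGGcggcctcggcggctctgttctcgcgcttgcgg
Lonp1: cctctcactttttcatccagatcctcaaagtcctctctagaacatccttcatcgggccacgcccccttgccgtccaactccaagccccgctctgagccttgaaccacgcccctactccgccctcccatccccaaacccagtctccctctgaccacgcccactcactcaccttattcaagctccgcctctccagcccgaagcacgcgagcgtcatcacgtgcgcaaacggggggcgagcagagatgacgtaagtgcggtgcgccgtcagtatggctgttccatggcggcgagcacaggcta
Clpp: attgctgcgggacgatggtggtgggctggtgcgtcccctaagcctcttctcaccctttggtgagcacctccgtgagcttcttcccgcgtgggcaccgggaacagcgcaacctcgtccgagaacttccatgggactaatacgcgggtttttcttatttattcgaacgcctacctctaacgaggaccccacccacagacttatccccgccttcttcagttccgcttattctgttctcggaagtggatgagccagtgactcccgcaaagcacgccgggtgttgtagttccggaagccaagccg
Letmd1: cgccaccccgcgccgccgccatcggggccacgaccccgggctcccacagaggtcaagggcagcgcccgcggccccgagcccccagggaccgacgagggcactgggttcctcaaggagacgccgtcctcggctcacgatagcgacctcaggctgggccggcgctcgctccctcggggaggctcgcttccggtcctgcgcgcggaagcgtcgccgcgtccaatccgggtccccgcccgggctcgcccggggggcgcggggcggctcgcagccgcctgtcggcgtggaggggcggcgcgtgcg

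Letters were searched on both strands with no mismatch: AAGATGG for YY1, GCGCATGCG for NRF1, CCGGAAGT for GABPA and other ETS factors, and AAGGTCA for the estrogen-related receptors. The windows of Lonp1, Clpp and Letmd1 hold none of them, which says only that these letters are not in these windows. In Timm50 the YY1 letters begin 11 bases past the start base. YY1 letters were in the windows of 3 of 35 members (8.6%), against 7.9% of the 9888 tested genes with a window and 6.34% of all 32851 windows. In Timm17a, as in Timm50, they lie just past the start site on the coding strand, and in Tomm34 they begin at base -198 (before the start) on the other strand. These are shown with 14 bases on either side (Timm50 chr7:28312015-28312049, Timm17a chr1:135313702-135313736, Tomm34 chr2:164071347-164071381).
Timm50: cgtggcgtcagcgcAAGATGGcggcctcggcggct
Timm17a: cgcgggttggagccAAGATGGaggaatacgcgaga
Tomm34: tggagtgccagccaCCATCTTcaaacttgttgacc

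The letters of different motifs did not overlap in any member's window; those of NRF1 in Opa1 match on both strands. ETS letters were the most frequent of the 4. They were in the windows of 12 of 35 members (34.3%), against 7.2% of tested genes and 3.89% of all windows. The 12 were Fis1, Mfn1, Phb2, Polg, Tfam, Timm10, Timm10b, Timm23, Timm29, Timm8a2, Timmdc1 and Tomm70a. Of the 8 members with a window and an unadjusted p under 0.05, 0 held these letters. GABPA, also called NRF2, is known to act on mitochondrial genes, Tfam included, and its own transcript Gabpa had a log2 difference of 0.12 (-0.15 to 0.39). The stretches of Tfam (chr10:71238070-71238105), Polg (chr7:79466290-79466325) and Mfn1 (chr3:32529424-32529459) are given as examples from genes whose arrays overlapped between groups.
Tfam: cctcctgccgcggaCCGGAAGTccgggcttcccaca
Polg: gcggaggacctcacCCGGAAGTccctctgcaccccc
Mfn1: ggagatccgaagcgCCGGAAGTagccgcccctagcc

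NRF1 letters were in the windows of 3 of 35 members (8.6%, against 3.3% of tested genes and 1.75% of all windows), those of Clpx, Opa1 and Timm13. The letters of the estrogen-related receptors were in 5 (14.3%, against 4.4% and 4.72%), those of Hspd1, Hspe1, Timm23, Timm44 and Timm8b. Hspd1 and Hspe1 share 1 stretch of DNA there, read on opposite strands, so the 5 genes hold 4 places. That shared stretch (chr1:55088086-55088120) and the one of Timm8b (chr9:50603793-50603827), the member at an unadjusted p under 0.05 with these letters, read as follows. A match of letters is a description and does not show binding.
Hspe1: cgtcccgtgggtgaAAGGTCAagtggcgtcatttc
Timm8b: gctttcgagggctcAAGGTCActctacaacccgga

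**Figure D5:**
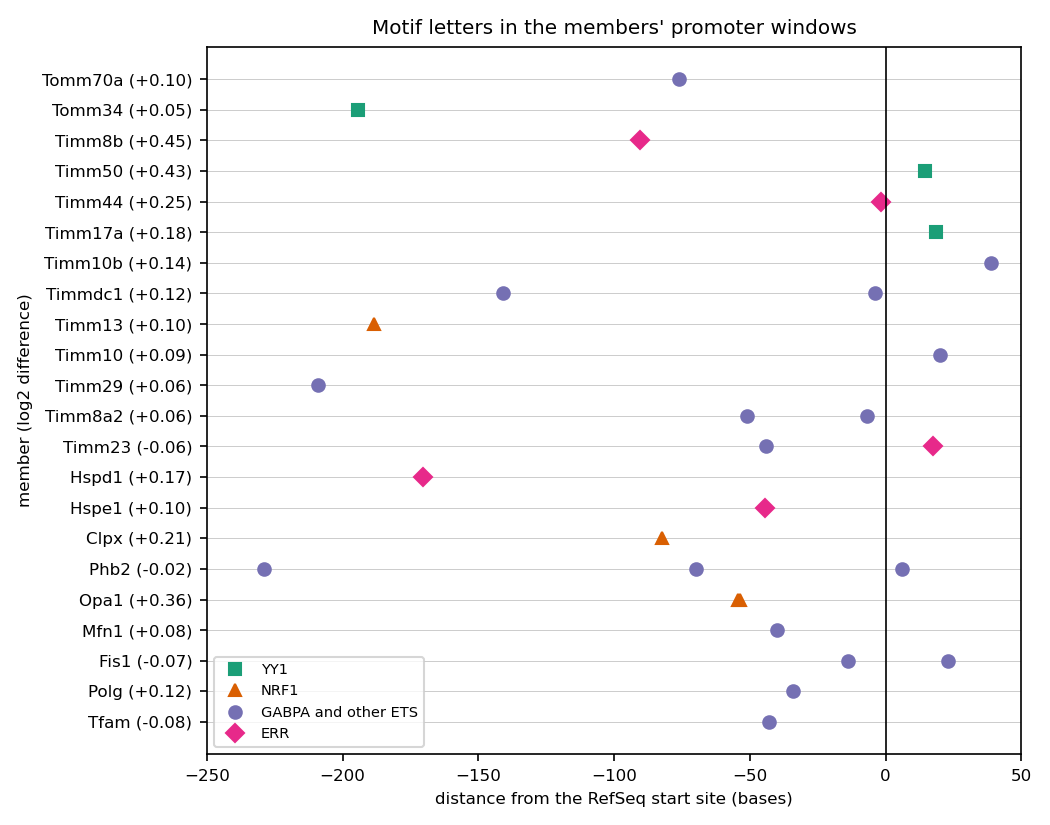
Middle of each motif match, in bases from the RefSeq start site, in the 22 members whose promoter windows hold at least 1 match; the log2 difference of each member stands in brackets. ETS letters (circles) lie in genes with differences between -0.08 and 0.14, and the YY1 letters (squares) of Timm50 and Timm17a lie just past the start site.

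Genes that work beside the members were read from lists of 76 measured partners. Of these, 63 had a higher mean in YY1bKO and 13 a lower one, 24 were higher and 0 lower at an unadjusted limma p under 0.05, and 0 passed the adjusted threshold by limma. Over all genes 51.0% had a higher mean, and 8.45% were higher and 1.99% lower at that p, shares that also apply to the 4 lists below. Among the brighter 50% of genes these shares were 58.7%, 12.1% and 1.8%. The partners' median log2 difference was 0.17. Without YY1bKO replicate 1, the array with the highest muscle marker mean, 15 were higher at that p, and the share over all genes was 5.0% there.

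Import and assembly partners were higher in 17 of 21 genes, 7 at an unadjusted p under 0.05. Dnaja3, a matrix cochaperone of Hspa9, had 8.63, 8.80 and 8.53 in controls and 9.25, 9.23 and 9.29 in YY1bKO (0.60 ± 0.10, limma adjusted p = 0.147). Trap1, the mitochondrial Hsp90, had 9.70, 9.74 and 9.71 against 10.15, 10.13 and 10.31 (0.48 ± 0.09, adjusted p = 0.180). Dnajc15, a cochaperone at the TIM23 channel, had a difference of 0.48 and Pmpcb, a subunit of the protease that removes targeting sequences, 0.51. The arrays of these 4 genes did not overlap between groups. The lowest value of the list was that of Ppif, the matrix cyclophilin (-0.89, -2.42 to 0.64), named here after its values were seen. Ppif was high in control replicate 2 alone, at 10.12 where the other 5 arrays lay between 7.60 and 8.02.

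Proteases and membrane scaffolds were higher in 13 of 13 genes, 6 at an unadjusted p under 0.05. Chchd6 and Immt, subunits of the complex that holds crista junctions, had differences of 0.70 and 0.53, Chchd6 named after its values were seen. Pitrm1, which degrades cleaved targeting sequences, had 0.46, Spg7, the partner of Afg3l2, 0.42, and Stoml2, an inner membrane scaffold, 0.39. The arrays of these 5 genes did not overlap between groups, with limma adjusted p between 0.258 and 0.324.

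Dynamics and turnover partners were higher in 17 of 18 genes, 3 of them at an unadjusted p under 0.05. Marchf5, an outer membrane ubiquitin ligase, had a difference of 0.52, Bnip3, a receptor for removal of mitochondria by autophagy, 0.51, and Pink1, the kinase that marks damaged mitochondria, 0.36. The arrays of Marchf5 and Bnip3 did not overlap and those of Pink1 did. Gdap1, an outer membrane protein near the lower quartile of intensities, had 0.27 (-0.05 to 0.59).

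Partners in mitochondrial DNA and transcription were higher in 16 of 24 genes, 8 at an unadjusted p under 0.05. Ppargc1a, the coactivator of mitochondrial biogenesis, had the largest difference of all 76 partners, with 6.24, 5.60 and 5.64 in controls and 7.14, 6.77 and 6.32 in YY1bKO (0.92 ± 0.27, limma adjusted p = 0.326). Mterf4, which acts on the mitochondrial ribosome, had 7.13, 7.13 and 7.17 against 7.56, 7.54 and 7.53 (0.40 ± 0.08, adjusted p = 0.191), Tefm, the elongation factor of mitochondrial transcription, 0.48 and Dguok, which supplies nucleotides, 0.32. The transcription factors that drive nuclear genes of mitochondria were not separated. Nrf1 had a difference of -0.30 (-0.71 to 0.12) and Esrra one of -0.04 (-0.31 to 0.23).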

How the data were processed

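Total RNA of 6 samples was labelled with biotin and hybridised to Affymetrix mouse arrays, per the labels' protocols. The authors deposited 1 linear intensity per probe set and array, made with RMA per the submitters' processing notes, with a version not given in the sources used here. RMA makes the arrays' distributions alike, so a change in total RNA cannot appear. That intensities are not on a log scale follows from their range (5.4 to 25730.1). Of 22690 probe sets, 20393 named 1 gene in the platform annotation, 691 several and 1606 none, and only the first kind was used. Each gene was represented by the probe set with the highest mean log2(intensity + 1), with no filter on dim probe sets. Of the 22 members with several probe sets, 9 had differences that disagreed in sign between them. Groups came from the titles. The 12394 genes were tested in 1 fit with limma 3.58.1 (lmFit and eBayes, R 4.3.3), 2-sided, with Benjamini-Hochberg adjustment over all genes and a threshold of 0.05. The step was tested on simulated data with equal spread in both groups, unlike the wider spread between controls in these arrays. How the fit behaves under such unequal spread was not tested. Members and gene lists were chosen with earlier results of these data known. All members were named. Array values were given for those at an unadjusted p under 0.05 and for all fusion, fission, mitochondrial DNA, chaperone and LETM genes, and for a few others chosen after their values were seen. Of each partner list up to 4 genes with the smallest p were named, with Ppargc1a, Nrf1, Gabpa and Esrra. Alternatives were other normalizations, a pseudocount of 16, all probe sets of a gene averaged, a filter on intensity at the 25th or at the 50th percentile, eBayes with a trend or robust, array weights, the replicate block and leaving out each array. The 5 mitochondrially encoded genes listed as markers had no probe set naming them and were not analysed here.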

Additional observations from a re-analysis of the deposited data

How the results depend on the processing

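None of the 39 members passed an adjusted p of 0.05 by limma under any of the 16 alternatives, where 9 were higher and 1 lower at an unadjusted p under 0.05 in the reported fit. Members higher at that p numbered 8 to 12 and their median difference was 0.09 to 0.16, while 4.6% to 13.2% of all genes were higher at that p. Lonp1, Clpp, Timm8b, Timm50, Tomm7 and Hspa9 kept that p in all 16, and Letmd1 in the 15 that hold it. Mfn2 and Letm1 lost it with the mean of all probe sets, which takes in dim ones. Members lower were 2 with quantile normalization and with a pseudocount of 16 (Tomm20 added to Timm22). With the mean of all probe sets the 1 lower member was Tomm20 in place of Timm22. Members lower were 0 to 2 without 1 array in turn (Tfam added without control replicate 1, Timm8a1 without control replicate 3), where partners lower were 0 to 1 and partners higher 15 to 26. Genes passing the adjusted threshold over all genes numbered 4 in the reported fit, 9 with a pseudocount of 16, 8 with the filter at the 50th percentile, 12 with robust moderation, 9 with array weights, 1 with the replicate block and 1 to 5 without 1 array in turn.

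Of the members, 22 kept their direction under every alternative and 17 did not. With the mean of all probe sets Timm17b (0.02), Dnm1l (0.01) and Phb2 (0.0014) turned, and with array weights Tomm34 (-0.03). Without 1 array in turn, the differences that changed sign ranged as follows. Timm17b ran from -0.13 to 0.02, Dnm1l from -0.05 to 0.03, Phb2 from -0.17 to 0.07, Tomm34 from -0.11 to 0.26, Hspe1 from -0.01 to 0.17 and Timm23 from -0.16 to 0.05. Timm10b ran from -0.0041 to 0.28, Tomm22 from -0.33 to 0.07, Timmdc1 from -0.03 to 0.24, Fis1 from -0.16 to 0.03, Tfam from -0.30 to 0.05 and Tomm40 from -0.18 to 0.10. The partner Esrra ran from -0.12 to 0.04, Clpx from -0.04 to 0.40, Tomm70a from -0.04 to 0.16, Mfn1 from -0.05 to 0.18, Timm29 from -0.01 to 0.13 and Timm8a2 from -0.02 to 0.10. The cause was not tested.

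Deviations of arrays with the same replicate number in both groups correlated at 0.611, 0.111 and 0.025 for replicates 1, 2 and 3. Of 6 arrays, 3 correlated best with their own number. With 3 arrays per group, these values cannot settle whether the numbers pair the samples or share a batch. With the replicate block 10 members were higher and 1 lower at an unadjusted p under 0.05. The number of arrays, 3 per group, limits the precision of every value.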

Other observations

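Other nuclear genes of mitochondria were read in the same fit. Of 78 respiratory chain and ATP synthase subunits, 75 had a higher mean in YY1bKO, 42 were higher and 0 lower at an unadjusted limma p under 0.05, and their median log2 difference was 0.26. Over all genes, 51.0% had a higher mean, and 8.45% were higher and 1.99% lower at that p. Among the brighter 50% of genes these shares were 58.7%, 12.1% and 1.8%. The respiratory chain list includes Cox7a1 (2.39) and Cox8b (1.57), which are also in the brown or beige marker list. Of 74 subunits of the mitochondrial ribosome, 67 had a higher mean, 34 were higher and 0 lower at that p, and the median was 0.25. The import, chaperone and dynamics genes had 28 of 39, 9 and 1, and 0.12. None of the genes of these sets passed the adjusted threshold by limma. Whether the sets differ from each other was not tested.

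Proliferation markers had lower means in YY1bKO in 7 of 7 genes, 3 of them at an unadjusted p under 0.05 (1.99% of all genes), with a median of -0.72. Endothelial markers had higher means in 8 of 8, 1 at that p (8.45% of all genes), with a median of 0.32, and macrophage markers in 4 of 8, with a median of -0.01. Mammary epithelium markers had higher means in 2 of 8, with a median of -0.21 and Csn2 below the lower quartile of intensities on all arrays. They summed to 196 to 4490 in controls and 201 to 429 in YY1bKO, and the highest sum was that of control replicate 2.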
